A study of Mus musculus with 16 samples.

Results

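The renin-angiotensin system was examined here through 10 genes, selected by symbol out of the 46078 genes counted in miR-106b- and control-transfected juxtaglomerular (JG) cells of the mouse. They were Agt (angiotensinogen), Ren1 (renin), Ace (angiotensin-converting enzyme), Agtr1a, Agtr1b and Agtr2 (the angiotensin receptors), Atp6ap2 (the prorenin receptor), Ctsb (cathepsin B), and Nr1h2 and Nr1h3 (the liver X receptors LXRβ and LXRα). Of these, 7 passed the filter of at least 1 CPM (counts scaled to a common library total), reached by 3 or more replicates of a group of 4. Ren1, Agtr1b and Agtr2 did not pass.

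Renin cleaves angiotensinogen to an inactive peptide, which angiotensin-converting enzyme trims to the vasoconstrictor angiotensin II. JG cells, modified smooth muscle cells in the wall of the afferent arteriole of the kidney, are the main source of circulating renin. Angiotensin II raises blood pressure through its type 1 receptor, and the prorenin receptor, cathepsin B and the liver X receptors act on prorenin or on the transcription of Ren1.

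The cultured JG cells carried YFP under the renin promoter and received either miR-106b or, as control, a microRNA precursor not found in mammals. RNA was taken 48 h later. For each transfection, 4 replicates gave polyadenylated RNA (polyA RNA) and 4 gave RNA immunoprecipitated with Ago2 (Ago2-IP RNA). Ago2 is the protein that holds microRNAs on their target mRNAs. The sample titles do not say whether the RNA kinds came from the same cultures. All 4 groups thus shared the engineered cells and a transfection, and differed in the RNA transfected and in the RNA kind. The libraries were single-end and did not keep the strand.

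Library totals over genes lay between 2579086 and 9459585 counts. The polyA control libraries were the deepest, at a median of 6450099.

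The labelled cell type was checked first. Among 14 markers of JG cells and their lineage, Ren1 had no count in any library and Akr1b7, a further product of renin cells, had 6 counts in all. Some transcripts of this list were present in polyA RNA, where Foxd1 was between 49.4 and 56.0 CPM and Tagln between 470 and 532 CPM in the control libraries. Others were scarce there, with Gja5 at a mean of 2.19 and Cnn1 at 1.27 CPM. With miR-106b, Foxd1 spread from 20.6 to 126 CPM in polyA RNA. Foxd1 and Tagln were lower in Ago2-IP control libraries, at up to 6.12 and 97.0 CPM, but they were not typical of the list. Of its 12 tested genes, 8 were higher and 4 lower in Ago2-IP than in polyA RNA of control cells (median log2 1.67), where 35.1% and 34.6% of all tested genes were, and 6 rose and 1 fell with miR-106b in polyA RNA (median log2 fold change 0.89), against 19% and 21.5% of all tested genes. Markers of heart muscle were abundant. The summed level of 25 cardiac muscle markers was 25110 to 35720 CPM in polyA control libraries and 49000 to 84810 CPM with miR-106b. In Ago2-IP RNA it was 113500 to 121000 CPM in control libraries and 110200 to 121000 CPM with miR-106b, and none of the 25 was at 0 in any group. Of the cardiac markers tested, 23 of 24 rose with miR-106b in polyA RNA, as did 11 of 12 endothelial, 11 of 12 macrophage and 8 of 8 fibroblast markers (edgeR's quasi-likelihood test, adjusted p below 0.05), where 19% of all tested genes were higher and 21.5% lower. In bulk RNA, fewer cells of a type and less RNA per cell cannot be told apart. Endothelial markers summed to 589.8 to 809.9 CPM in polyA control and to 970.2 to 1771 CPM in polyA miR-106b libraries, and fibroblast markers to 11190 to 13140 and 14800 to 27430 CPM. The macrophage markers summed to 357.3 to 508.9 and 682.3 to 1144 CPM in these groups. In polyA RNA the median log2 fold change with miR-106b was 1.24 over the cardiac, 1.18 over the endothelial and 1.19 over the macrophage markers. P-values measure the spread between the 4 replicate cultures of a group.

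Replicate 1 of polyA miR-106b stood apart from the other 3 libraries of its group. Its counts differed from theirs by 19.9 to 29.9 chi-square units per gene, against 6.75 to 13.2 among the other 3, and it was also the deepest of the group, at 4554848 counts. It had the lowest cardiac markers of the group (49000 CPM) and the highest fibroblast markers (27430 CPM). Without it, 4 of the 7 genes tested rose and 1 fell in polyA RNA by edgeR's quasi-likelihood test with Benjamini-Hochberg adjustment, where 23.5% of all tested genes rose and 21.5% fell. Ace (log2 fold change 1.45), Nr1h3 (1.55), Agtr1a (1.23) and Ctsb (0.50) then rose with adjusted p between 2.56e-05 and 0.0041 in edgeR's test, and Atp6ap2 (-0.50) fell with an adjusted p of 0.0379. Agt (0.97, adjusted p = 0.124) and Nr1h2 (0.24, adjusted p = 0.0659) did not pass. The change of the ratio of Ago2-IP to polyA RNA had the same 5 genes lower without this library as with it, where 20.7% of all tested genes were lower. Adjusted p was up to 0.0458 in edgeR's test, the value of Nr1h2, whose call was lost in 9 fits that left out another library.

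The mature miR-106b-5p, 21 bases from chromosome 5 (chr5:138165787-138165807, minus strand, GRCm38.p6, RefSeq), is shown because its seed, bases 2 to 8 in capitals, defines the sites searched in the 3′UTRs.

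mmu-miR-106b-5p: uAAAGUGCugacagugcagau

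A site of 7 bases was either GCACTTT, which pairs with the whole seed, or a shorter match that ends in A and reads CACTTTA. Both together gave the site of 8 bases, GCACTTTA. The core of 6 bases that all of them share is CACTTT. Only the transcript strand was searched. None of the 10 genes had a site of 7 or 8 bases in its longest annotated 3′UTR or in any other, where 23.0% of the 13234 tested genes with a 3′UTR had one in the longest. Nr1h3 had the 6-base core alone, as did Agtr2, where 43.5% of the tested genes with a 3′UTR had a match of 6 bases or more. The stretch of the Nr1h3 3′UTR (chr2:91184076-91184103, minus strand) is the only match in a gene that passed the filter. For comparison, Abca1, a cholesterol exporter induced by liver X receptors (chr4:53030995-53031022, minus strand), and Sp1, a factor of the Ren1 promoter (chr15:102433049-102433076 and chr15:102435148-102435175, plus strand), had longer sites. Capitals mark the bases that match, and coordinates are those of GRCm38 with the GENCODE M21 annotation.

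Nr1h3 core: ccaggagagcCACTTTgtgcagggttct

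Abca1 site: ctcattccaaGCACTTTAtgctgtctgt

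Sp1 first site: atatcctagtGCACTTTctaaagaagaa

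Sp1 second site: ggagggcatgGCACTTTtccaacccgga

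A match of letters is a description and not evidence of binding.

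In polyA RNA, 4 of the 7 tested genes rose with miR-106b and none fell, on the background of 40.5% of all tested genes that changed, 19% higher and 21.5% lower (adjusted p under 0.05, edgeR's quasi-likelihood test with Benjamini-Hochberg adjustment over 14897 genes). Those that rose were Nr1h3, Ace, Agtr1a and Ctsb. The median log2 fold change of the 7 genes was 0.99 and that of all tested genes -0.05. The miR-106b and control libraries of 5 genes did not overlap, 4 higher and 1 lower, where 16.7% of all tested genes were higher and 21.6% lower without overlap. In Ago2-IP RNA, 0 of the 7 genes changed, on a background of 0% called, and 0 had groups that did not overlap (1.54% of all tested genes higher and 1.71% lower). There, 830 of all genes had an unadjusted p under 0.05 in edgeR's test, and DESeq2's Wald test called 2.

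**Figure D1:**
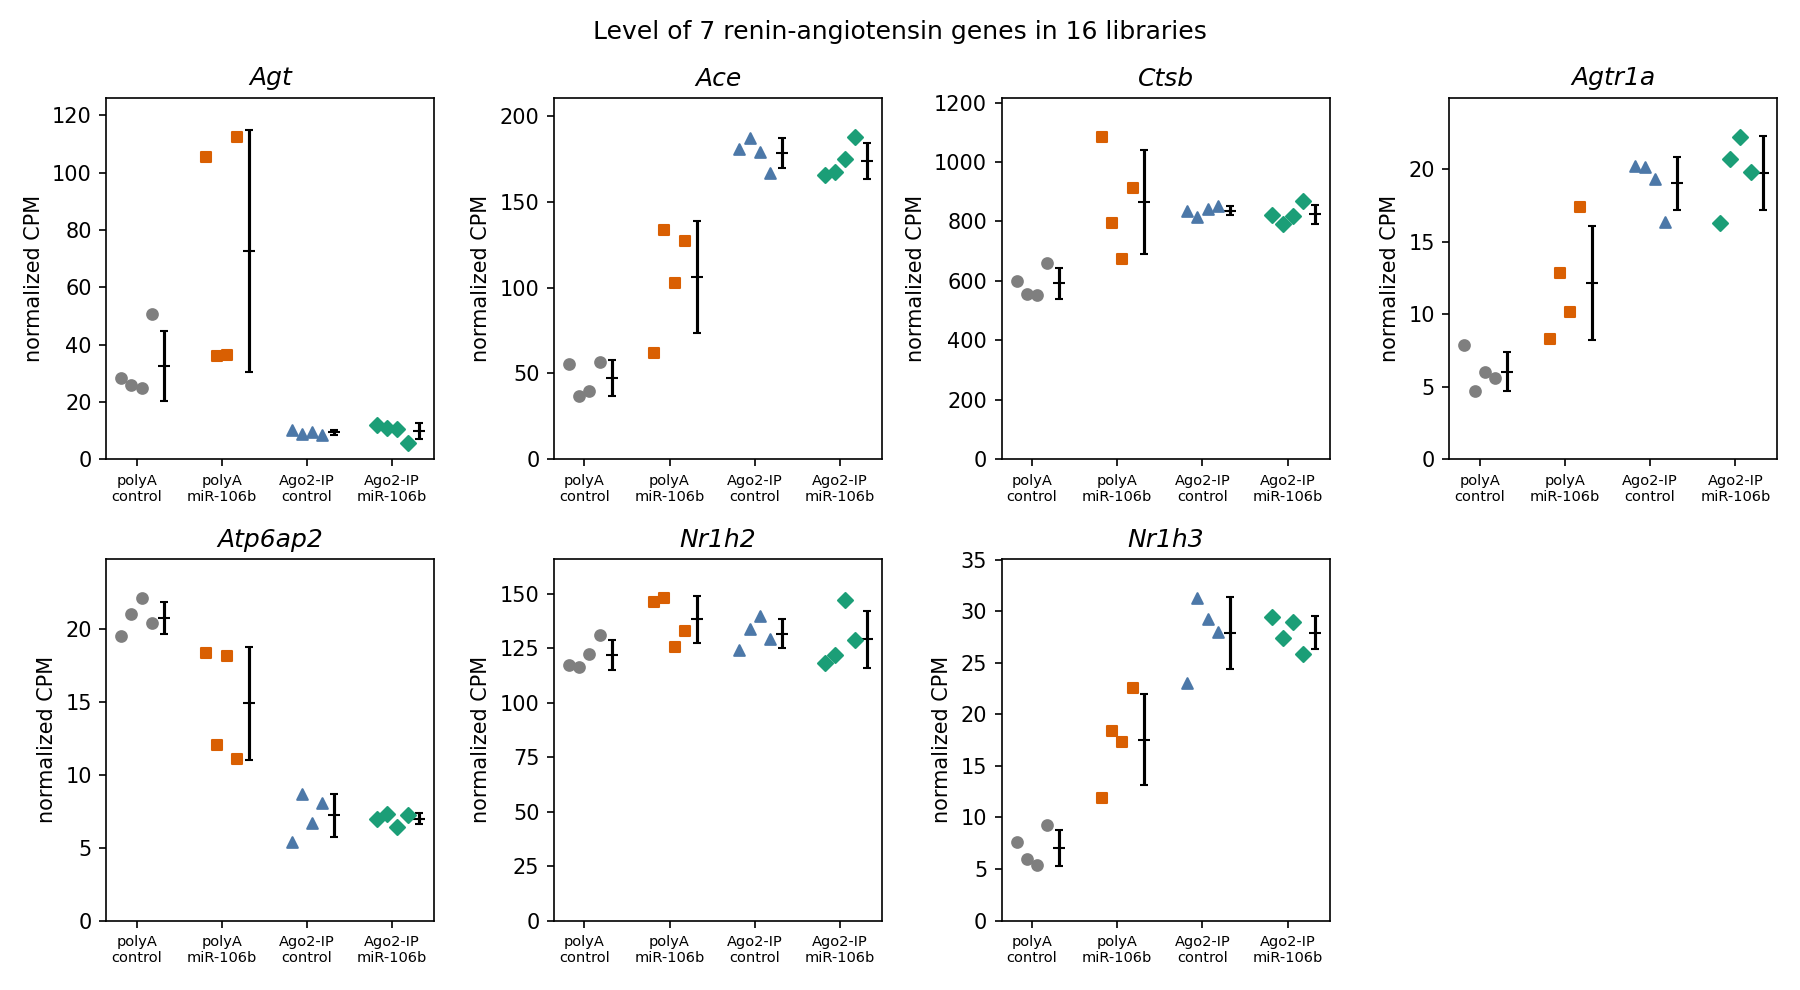
Normalized CPM (vertical axes, from 0) of the 7 genes that passed the filter in each of the 16 libraries, by group (horizontal axis). Points are libraries in order of replicate number, and the black dash and bar beside them are the mean and SD of 4 libraries. By group mean, Ace, Agtr1a and Nr1h3 are lowest in polyA control and highest in both Ago2-IP groups, while Agt and Atp6ap2 are lowest in Ago2-IP RNA. Libraries of Agtr1a overlap between polyA miR-106b and Ago2-IP RNA.

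The substrate, angiotensinogen, varied widely between polyA libraries of the same group. Agt (ENSMUSG00000031980) lies on chromosome 8 from 124556534 to 124569706, minus strand, and its exons are shared with no other gene. In polyA control libraries it was at 28.3, 25.96, 24.8 and 50.6 normalized CPM in replicates 1 to 4. With miR-106b it was at 105, 36.1, 36.3 and 113 normalized CPM. Thus replicates 1 and 4 of the miR-106b group were high, and the other 2 lay below the highest control library. The log2 fold change was 1.17 (SE 0.442; edgeR's quasi-likelihood test, adjusted p = 0.0655), and did not pass. The call depended on the processing and on single libraries. With all libraries kept, adjusted p was 0.0479 with DESeq2's size factors, 0.0344 with at least 10 counts in every library, 0.0121 in the fit of all 16 libraries and 0.00332 with the replicate number as a block, all in edgeR's test, and 0.00507 in DESeq2's Wald test. In edgeR's test it was 0.0290 without polyA control replicate 4, 0.0315 without polyA miR-106b replicate 2 and 0.0163 without replicate 3, and over all 15 alternatives adjusted p ranged from 0.00332 to 0.22, with 8 under 0.05. Relative to the cardiac markers, a comparison added after the data were seen, Agt was at 0.883 to 1.43 CPM per 1000 CPM of summed markers in control and 0.418 to 2.11 with miR-106b. No p-value is given on this scale here or below, since the marker sums of the polyA groups do not overlap, so that dividing by them separates even a gene of constant CPM.

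Agt was scarce in Ago2-IP RNA. Control libraries held 10.3, 8.94, 9.68 and 8.52 normalized CPM and miR-106b libraries 12, 10.8, 10.6 and 5.82, every one of them below every polyA library. Between Ago2-IP groups the log2 fold change was 0.06 (SE 0.228, adjusted p = 0.994 in edgeR's test).

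No read of renin itself was counted. Ren1 (ENSMUSG00000070645, chromosome 1 from 133350510 to 133360325, plus strand) had 0 counts in each of the 16 libraries, among 70668386 counts in all. A count of 0 allows up to 3 counts, which is 0.317 CPM in the deepest library and 1.16 CPM in the shallowest. Over the 4 libraries of a group the limit was 0.107 CPM for polyA control and 0.205 CPM for polyA miR-106b libraries, and for Ago2-IP RNA 0.195 CPM with control and 0.239 CPM with miR-106b transfection. These limits cover counting error only, since reads carried no molecular identifiers, and they assume that reads of Ren1 would have been aligned and counted, which was not tested. None of the 1608 distinct stretches of 50 bases in its annotated transcripts, the length of a read, occurred in a transcript of another gene.

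Of the enzymes, Ace and Ctsb rose in polyA RNA. Ace (ENSMUSG00000020681), whose product makes angiotensin II, lies on chromosome 11 from 105967945 to 105989964, plus strand, and shares 5.6% of its exon bases with the antisense gene Gm11651, from which its reads cannot be told apart without strand. In polyA control libraries Ace was at 55.4, 36.9, 39.7 and 56.9 normalized CPM. With miR-106b it was at 61.7, 134, 103 and 127 normalized CPM. No control library reached the lowest miR-106b library, although replicate 1 of the latter was close to them. The fold change was 2.25 (log2 1.17, SE 0.226, adjusted p = 0.00188 in edgeR's quasi-likelihood test).

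In Ago2-IP RNA, Ace was at 181, 187, 179 and 167 normalized CPM in control and 165, 167, 175 and 188 with miR-106b. The 2 groups overlapped throughout, and the log2 fold change was -0.04 (SE 0.0574; edgeR's test, adjusted p = 0.962). The level of Ace followed that of the cardiac markers from library to library. Per 1000 CPM of summed cardiac markers, Ace was at 1.48 to 1.73 CPM in polyA control libraries and 1.24 to 1.75 CPM with miR-106b, and in Ago2-IP RNA at 1.46 to 1.54 CPM and 1.45 to 1.55 CPM. On that scale, the mean log2 difference between polyA groups was -0.07, and the groups overlapped.

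Ctsb (ENSMUSG00000021939), a lysosomal protease able to process prorenin, lies on chromosome 14 from 63122462 to 63145923, plus strand, and 12.8% of its exon bases overlap Fdft1 on the other strand. It was the most abundant of the 10 genes per kilobase of exon in every group. In polyA control libraries it was at 598, 555, 552 and 661 normalized CPM. With miR-106b it was at 1085, 795, 674 and 912 normalized CPM. The groups did not overlap, and the fold change was 1.47 (log2 0.55, SE 0.149, adjusted p = 0.0106 in edgeR's quasi-likelihood test).

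In Ago2-IP RNA the level of Ctsb was nearly constant, between 816 and 853 normalized CPM in control and between 792 and 869 with miR-106b (log2 fold change -0.02, SE 0.0387, adjusted p = 0.974 in edgeR's test). Relative to the cardiac markers, Ctsb was at 18.6 to 22.3 CPM per 1000 in polyA control and 9.22 to 21.7 with miR-106b, a mean log2 difference of -0.68. The direction was opposite to that of CPM, and the groups overlapped.

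Of the receptors of angiotensin II, Agtr1a alone was detected beyond a few reads. Agtr1a (ENSMUSG00000049115, chromosome 13 from 30336441 to 30382867, plus strand) encodes the main type 1 receptor of the mouse. In polyA control libraries it was at 7.89, 4.71, 5.99 and 5.59 normalized CPM. With miR-106b it was at 8.28, 12.8, 10.2 and 17.4 normalized CPM. All 4 miR-106b libraries were higher than all 4 control libraries, with a fold change of 1.99 (log2 0.99, SE 0.255, adjusted p = 0.0082 in edgeR's quasi-likelihood test). These levels rest on 32 to 50 counts per library.

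In Ago2-IP RNA, Agtr1a was at 20.2, 20.1, 19.4 and 16.4 normalized CPM in control and 16.3, 20.7, 22.2 and 19.8 with miR-106b, and the groups overlapped (log2 fold change 0.07, SE 0.154, adjusted p = 0.98 in edgeR's test). Per 1000 CPM of cardiac markers it was at 0.157 to 0.247 CPM in polyA control and 0.149 to 0.203 in polyA miR-106b, and in Ago2-IP RNA at 0.143 to 0.169 in control and 0.143 to 0.189 with miR-106b. The mean log2 difference between polyA groups on that scale was -0.23.

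Agtr1b (ENSMUSG00000054988, chromosome 3 from 20314473 to 20367177, minus strand), the second type 1 receptor of rodents, had 5 counts in all libraries together. There was 1 count in polyA control replicate 4, 1 each in Ago2-IP control replicates 1 and 3, and 1 each in Ago2-IP miR-106b replicates 2 and 3. Of its stretches of 50 bases, 1.54% also occur in transcripts of Agtr1a, so that these reads are uncertain. Agtr2 (ENSMUSG00000068122, chromosome X from 21484544 to 21489164, plus strand), which encodes the type 2 receptor, had 0 counts in all 16 libraries, with the same limits as Ren1. Neither was tested.

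The prorenin receptor was the member that was lower with miR-106b. Atp6ap2 (ENSMUSG00000031007, chromosome X from 12587801 to 12617049, plus strand) is also an accessory subunit of the vacuolar proton pump. In polyA control libraries it was at 19.6, 21.04, 22.2 and 20.4 normalized CPM. With miR-106b it was at 18.3, 12.02, 18.2 and 11.1 normalized CPM. All miR-106b libraries lay below all control libraries, replicates 1 and 3 only narrowly. The log2 fold change was -0.46 (SE 0.177; edgeR's quasi-likelihood test, adjusted p = 0.0522), which did not pass. Adjusted p in the same test was 0.0379 without polyA miR-106b replicate 1, 0.0297 without replicate 3 and 0.0414 with at least 10 counts in every library. The range went up to 0.233 over 15 alternatives.

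Replicates 2 and 4, where Atp6ap2 was lowest, had the highest cardiac markers of the polyA libraries (84810 and 82120 CPM). In Ago2-IP RNA it was lower still, at 5.41 to 8.66 normalized CPM in control and 6.45 to 7.29 with miR-106b, and the difference between these groups was small against its error (log2 -0.05, SE 0.261, adjusted p = 0.996 in edgeR's test). Per 1000 CPM of cardiac markers, Atp6ap2 was at 0.575 to 0.846 CPM in polyA control and 0.130 to 0.367 with miR-106b. The mean log2 difference of -1.73 on that scale includes the rise of the markers themselves.

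The liver X receptors are nuclear receptors of oxysterols, and LXRα binds the Ren1 promoter. Nr1h3 (LXRα, ENSMUSG00000002108, chromosome 2 from 91184061 to 91202834, minus strand) showed the largest fold change of the 7 genes in polyA RNA with all libraries kept. That of Agt was larger without polyA miR-106b replicate 2 (log2 1.39 against 1.28) or replicate 3 (1.39 against 1.31). In control libraries Nr1h3 was at 7.58, 5.97, 5.39 and 9.25 normalized CPM. With miR-106b it was at 11.9, 18.4, 17.3 and 22.6 normalized CPM. The groups did not overlap, with a fold change of 2.48 (log2 1.31, SE 0.233, adjusted p = 0.00108 in edgeR's quasi-likelihood test).

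In Ago2-IP RNA, Nr1h3 was at 23.1, 31.3, 29.3 and 27.95 normalized CPM in control and 29.4, 27.4, 29.0 and 25.9 with miR-106b, with overlap (log2 fold change -0.002, SE 0.131, adjusted p = 1 in edgeR's test). Like Ace, it kept close to the cardiac markers. Per 1000 CPM of these markers it was at 0.201 to 0.261 CPM in polyA control libraries and 0.214 to 0.295 CPM with miR-106b, and in Ago2-IP RNA at 0.193 to 0.259 CPM and 0.214 to 0.259 CPM. The mean log2 difference between polyA groups was then 0.10.

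Nr1h2 (LXRβ, ENSMUSG00000060601, chromosome 7 from 44549616 to 44553951, minus strand) varied least between groups. In polyA RNA it was at 117, 116, 122 and 131 normalized CPM in control and at 147, 148, 126 and 133 with miR-106b. The groups overlapped, and the log2 fold change was 0.19 (SE 0.102, adjusted p = 0.165 in edgeR's quasi-likelihood test). Of 15 alternatives, 2 called the rise, edgeR's fit of all 16 libraries (log2 0.31, adjusted p = 0.00754) and DESeq2's Wald test (adjusted p = 0.0406), and the highest adjusted p was 0.414. In Ago2-IP RNA it was between 124 and 140 normalized CPM in control and between 118 and 147 with miR-106b (log2 fold change -0.03, SE 0.0659, adjusted p = 0.977 in edgeR's test). Per 1000 CPM of cardiac markers, Nr1h2 was at 3.67 to 4.68 CPM in polyA control and 1.56 to 2.94 CPM with miR-106b, while the markers themselves rose.

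**Figure D2:**
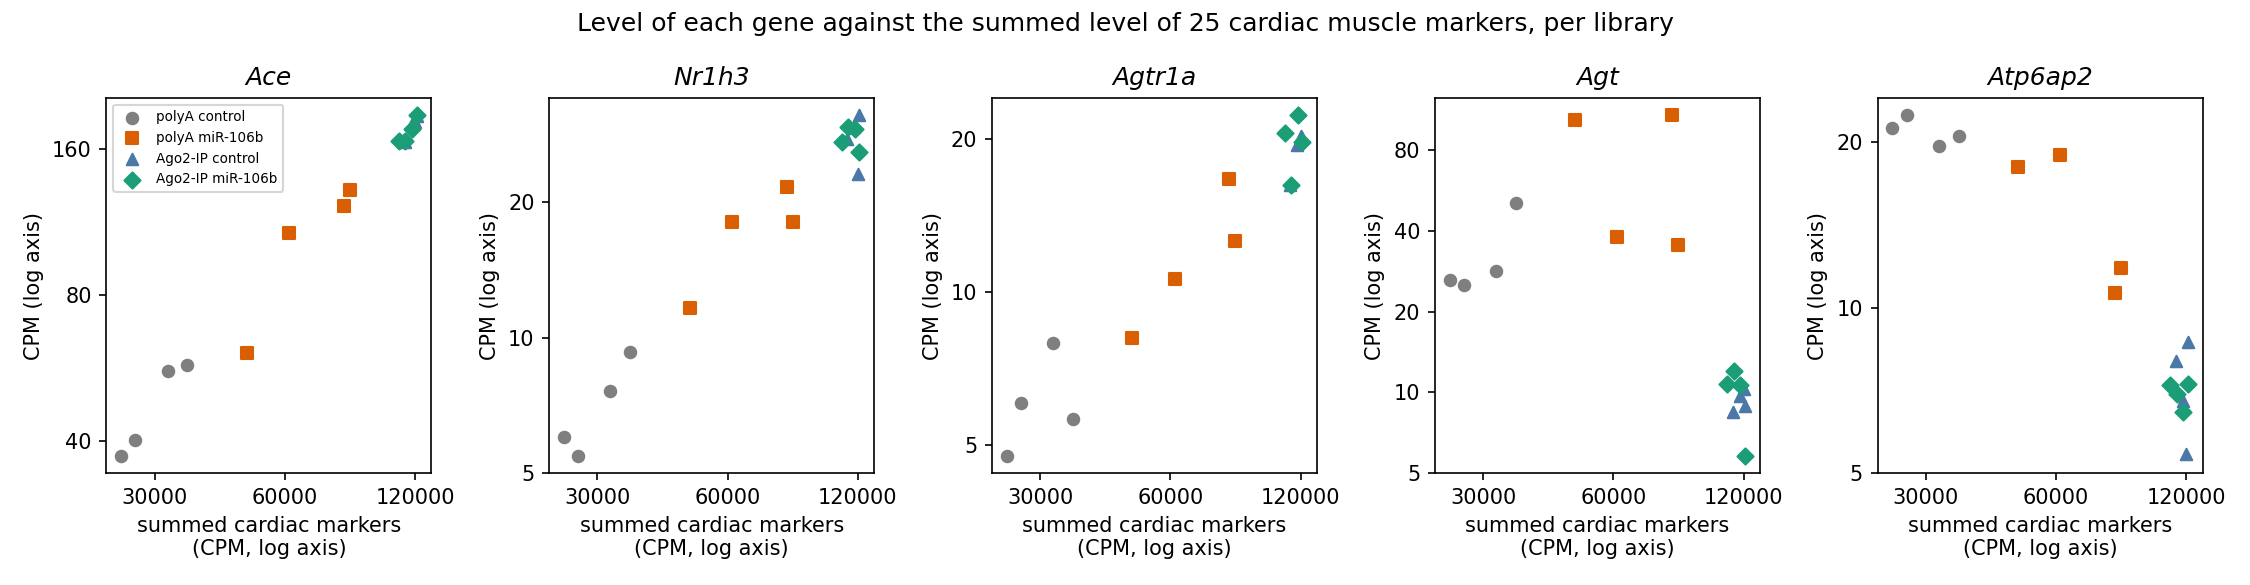
CPM of 5 genes, scaled to library size (vertical axes, logarithmic), against the summed CPM of 25 cardiac muscle markers (horizontal axes, logarithmic), with 1 point per library and symbols by group. From group to group, Ace, Nr1h3 and Agtr1a rise along with the markers and Atp6ap2 descends. Within groups, Nr1h3 and Agtr1a do not follow the markers throughout. Agt splits, with polyA miR-106b replicates 1 and 4 at 103 and 108 CPM.

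Across the groups, then, the mean CPM of Ace, Agtr1a and Nr1h3 rose with the cardiac markers, from polyA control over polyA miR-106b to Ago2-IP RNA. The summed endothelial and macrophage markers rose in the same order, to 2274 to 2423 and 1543 to 1652 CPM in Ago2-IP control libraries. Of the tested JG and renin lineage genes, 8 of 12 were also higher in Ago2-IP than in polyA RNA of control cells, and 4 were lower. The share of all genes with this order was not counted. Whether transcripts of other cell types take part in the rises in polyA RNA was not tested.

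Compared with each other per kilobase of exon, the genes kept a similar order at the top and changed order below it. In polyA control libraries Ctsb was at 97.7 ± 8.38 CPM per kilobase (SD, n = 4), Nr1h2 at 36.3 ± 2.03, Agt at 17.1 ± 6.46, Ace at 8.93 ± 1.97, Atp6ap2 at 7.94 ± 0.414, Nr1h3 at 2.80 ± 0.691 and Agtr1a at 2.17 ± 0.482 CPM per kilobase. The libraries of Ace overlapped with those of Atp6ap2, and those of Nr1h3 with those of Agtr1a. In polyA miR-106b libraries the ranges of Nr1h2 and Agt overlapped, as did those of Agt and Ace, of Nr1h3 and Atp6ap2, and of Atp6ap2 and Agtr1a. In Ago2-IP control libraries, by contrast, Ace followed Nr1h2 at 33.7 ± 1.61 CPM per kilobase and Agt and Atp6ap2 were last, at 4.94 ± 0.406 and 2.76 ± 0.556 CPM per kilobase (SD, n = 4).

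The ratio of Ago2-IP to polyA RNA was compared for each transfection in a fit of all 16 libraries, since the study reads association with Ago2 from this ratio. In control-transfected cells 5 of 7 genes were higher in Ago2-IP RNA, where 35.1% of all tested genes were, and 2 were lower, where 34.6% were. Nr1h3 was 4.94-fold (log2 2.31, SE 0.182), Ace 4.69-fold (log2 2.23, SE 0.191) and Agtr1a 3.9-fold (log2 1.964, SE 0.203) higher. Ctsb was 1.75-fold and Nr1h2 1.34-fold higher. Agt (log2 -1.48, SE 0.433) and Atp6ap2 (log2 -1.21, SE 0.186) were lower. Adjusted p in edgeR's quasi-likelihood test was between 7.02e-11 for Nr1h3 and 0.00785 for Agt. The cardiac markers were higher by a median log2 of 2.29 in the same comparison (23 of 24 called).

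In miR-106b-transfected cells the same ratios lay closer to 1 for the genes that were higher. Nr1h3 (log2 0.85), Ace (0.88) and Agtr1a (0.89) were higher, 3 of 7 genes against 21.9% of all tested genes, with adjusted p from 0.000478 to 0.00102 in edgeR's test. Agt (log2 -2.73, SE 0.441) and Atp6ap2 (log2 -0.94, SE 0.205) were lower, 2 of 7 genes against 24.5%. Ctsb (log2 0.09, SE 0.114) and Nr1h2 (log2 0.06, SE 0.0926) did not pass the test. The cardiac markers were higher by a median log2 of 0.89.

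The change of the ratio with miR-106b, tested as the interaction, was downward for 5 of 7 genes, where 19.7% of all tested genes were lower, and upward for none. The log2 change was -1.46 (SE 0.255) for Nr1h3, -1.35 (SE 0.262) for Ace, -1.07 (SE 0.288) for Agtr1a, -0.72 (SE 0.162) for Ctsb and -0.36 (SE 0.13) for Nr1h2. Adjusted p in edgeR's quasi-likelihood test was 0.000142, 0.000943, 0.00704, 0.00168 and 0.0404 in that order. Nr1h2 passed in only 8 of 23 alternatives, with adjusted p up to 0.464 in edgeR's test. None of the 5 genes passed in the comparison of the Ago2-IP groups alone. Agt (log2 -1.25, SE 0.63, adjusted p = 0.164 in edgeR's test) and Atp6ap2 (log2 0.27, SE 0.28, adjusted p = 0.519 in edgeR's test) did not pass, although a change of the ratio may be missed with errors of this size. Among cardiac markers 23 of 24 changed downward, by a median log2 of -1.40 over the 24.

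These ratios depend on how the RNA kinds are scaled to each other. With library size alone, the median log2 ratio of all tested genes moved from -0.03 to -0.35 in control and from -0.04 to -0.19 in miR-106b transfection, and the share of higher genes among those called from 50.3% to 37.9% and from 47.2% to 34.0%. Nr1h2 then did not pass in control transfection (log2 0.10, adjusted p = 0.283 in edgeR's test, in a range of 1.57e-05 to 0.283 over 15 alternatives). The change of the ratio had 27.7% of its called genes higher, against 46.3% with library size alone and 44.9% with TMM within each RNA kind, and Nr1h2 did not pass under either.

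**Figure D3:**
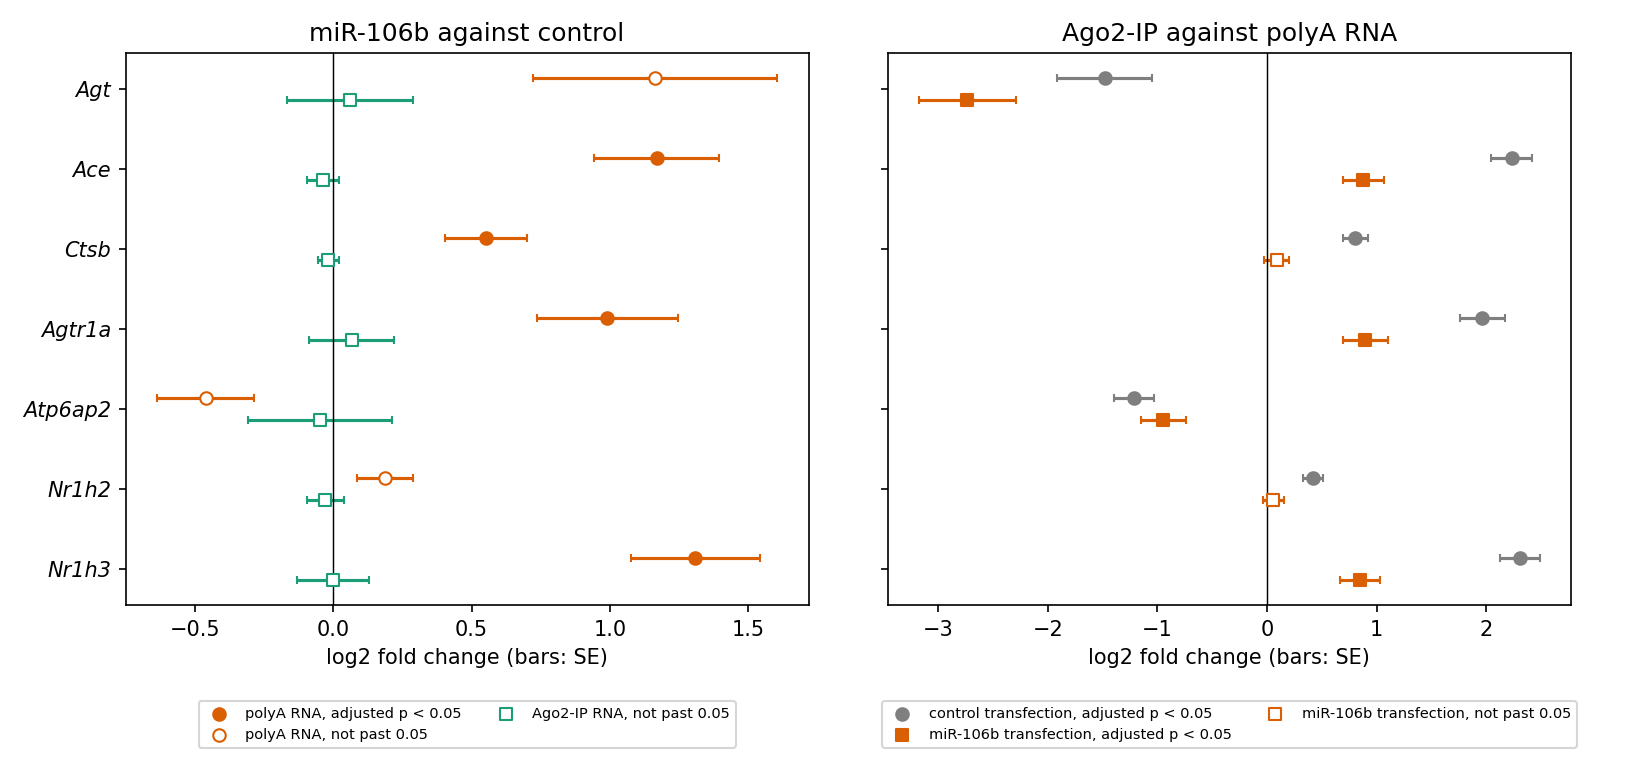
Fitted log2 fold changes of the 7 genes (horizontal axes), with bars for the SE and filled symbols for adjusted p under 0.05. On the left miR-106b is compared with control in polyA RNA (circles) and Ago2-IP RNA (squares), and on the right Ago2-IP with polyA RNA after control (circles) or miR-106b transfection (squares). All 7 squares on the left lie near 0, between -0.05 and 0.07.

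Genes around the system were then described by list in polyA RNA, where 19% of all tested genes rose and 21.5% fell, with a median log2 fold change of -0.05. With lists of 4 to 20 tested genes, the counts below describe the lists and set none of them apart from other genes. Of 16 peptidases that make or degrade angiotensins, 12 were tested, of which 3 rose and 5 fell with miR-106b (median log2 fold change -0.27). Anpep, an aminopeptidase of the cell surface that degrades angiotensin III, rose from 27.6 ± 4.48 to 48.8 ± 8.09 normalized CPM (SD, n = 4), a fold of 1.76. Neurolysin (Nln, log2 -0.82, SE 0.163), the insulin-regulated aminopeptidase that binds angiotensin IV (Lnpep, log2 -0.76, SE 0.185) and thimet oligopeptidase (Thop1, log2 -0.72, SE 0.123) fell. Thop1 went from 94.9 ± 4.98 to 57.6 ± 9.09 normalized CPM. Adjusted p of these 4 genes was between 0.000943 and 0.00614 in edgeR's quasi-likelihood test. Ctsg, cathepsin G, had 0 counts in all libraries and was not tested.

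Of 8 further receptors and partners of the receptors, 7 were tested, 5 rose and none fell (median log2 fold change 0.65), against 19% and 21.5% of all genes. Zbtb16, a transcription factor bound by the type 2 receptor, rose from 21.5 ± 4.31 to 51.4 ± 13.4 normalized CPM (SD, n = 4), a fold of 2.39. Arap1, a GTPase-activating protein whose symbol is shared with a receptor-associated protein that may be another gene, rose by 0.73 (SE 0.116), Mtus1, a partner of the type 2 receptor, by 0.67 (SE 0.139), and Agtrap, which drives internalization of the type 1 receptor, by 0.65 (SE 0.131) on the log2 scale. Adjusted p was between 0.000678 and 0.00242 in edgeR's test. Mas1, the receptor of angiotensin 1-7, had 70 counts in all and did not pass (log2 0.43, SE 0.607). The median log2 ratio of this list between Ago2-IP and polyA RNA in control cells was 1.40, with 6 of 7 higher and 1 lower, against 35.1% and 34.6% of all tested genes. Zbtb16 was higher there by 2.32, near the median of the cardiac markers at 2.29, and its rise in polyA RNA (log2 1.26) was near theirs at 1.24. The part of other cell types in these rises was not tested.

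Of 9 genes of aldosterone synthesis and response, 4 were tested, 2 rose and 1 fell. Sgk1, a kinase induced by mineralocorticoids, fell from 170 ± 4.56 to 82.8 ± 22.1 normalized CPM (SD, n = 4; log2 -1.03, SE 0.163, adjusted p = 0.000697 in edgeR's test). Nr3c2, the mineralocorticoid receptor, rose by 0.79 (SE 0.294; edgeR's test, adjusted p = 0.0479), and its groups overlapped. Its call was lost with library size alone (adjusted p = 0.0512 in edgeR's test). The call was also lost without any of polyA control replicates 1 to 3 and polyA miR-106b replicates 2 to 4, where adjusted p lay between 0.0512 and 0.14. The lowest over 15 alternatives was 0.00622. Cyp11b2, the aldosterone synthase, had 1 count in all libraries.

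Factors that bind the Ren1 promoter and enhancer numbered 21, of which 20 were tested, 4 rose, 3 fell and 13 did not pass (median log2 fold change 0.04). This was 7 of 20 called, where 40.5% of all tested genes were. The retinoic acid receptor Rarb rose from 3.12 ± 0.884 to 7.97 ± 3.06 normalized CPM (SD, n = 4), and Nfia, a nuclear factor I family member, from 71.2 ± 5.74 to 125 ± 13.1. Vdr, the vitamin D receptor, which represses Ren1, fell from 88.4 ± 8.50 to 47.1 ± 12.5 normalized CPM (log2 -0.90, SE 0.17), and Sp1, whose sites are shown above, from 81.1 ± 8.27 to 51.2 ± 10.5 (log2 -0.66, SE 0.143). Adjusted p of these 4 genes was between 0.000676 and 0.00602 in edgeR's quasi-likelihood test. Rarb, at log2 1.35 in polyA RNA and 2.47 between Ago2-IP and polyA RNA of control cells, moved by amounts near the cardiac medians of 1.24 and 2.29. In Ago2-IP RNA, Vdr was at 3.49 ± 1.17 normalized CPM in control and 5.23 ± 1.85 with miR-106b.

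Of 13 targets of the liver X receptors, 10 were tested, of which 4 rose and 4 fell with miR-106b (median log2 fold change 0.19, Nr1h3 counted, since it is a target of its own product). Abcg1, a sterol transporter, rose from 4.57 ± 1.90 to 13.0 ± 6.11 normalized CPM (SD, n = 4), with overlapping groups, and Apoe, the apolipoprotein that carries exported cholesterol, from 348 ± 51.5 to 831 ± 225. The fatty acid synthase Fasn fell from 1072 ± 84.2 to 486 ± 122 normalized CPM (log2 -1.14, SE 0.169, adjusted p = 0.000676 in edgeR's test). Named after their values were seen, Abca1 also rose (log2 1.06, SE 0.15), and its 3′UTR holds the site of 8 bases shown above, and the lipid synthesis genes Scd1 (log2 -0.95), Scd2 (-0.90) and Srebf1 (-0.37) were the others that fell. The genes that rose did so along with the markers of other cell types. Between Ago2-IP and polyA RNA of control cells Apoe was higher by a log2 of 2.30, Abcg1 by 2.20 and Abca1 by 1.92, where the median was 2.29 for the cardiac, 2.23 for the endothelial and 2.21 for the macrophage markers. The part of these cell types in the rises was not tested. In Ago2-IP control libraries Apoe was at 1386 ± 42.9 and Fasn at 132 ± 12.6 normalized CPM.

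**Figure D4:**
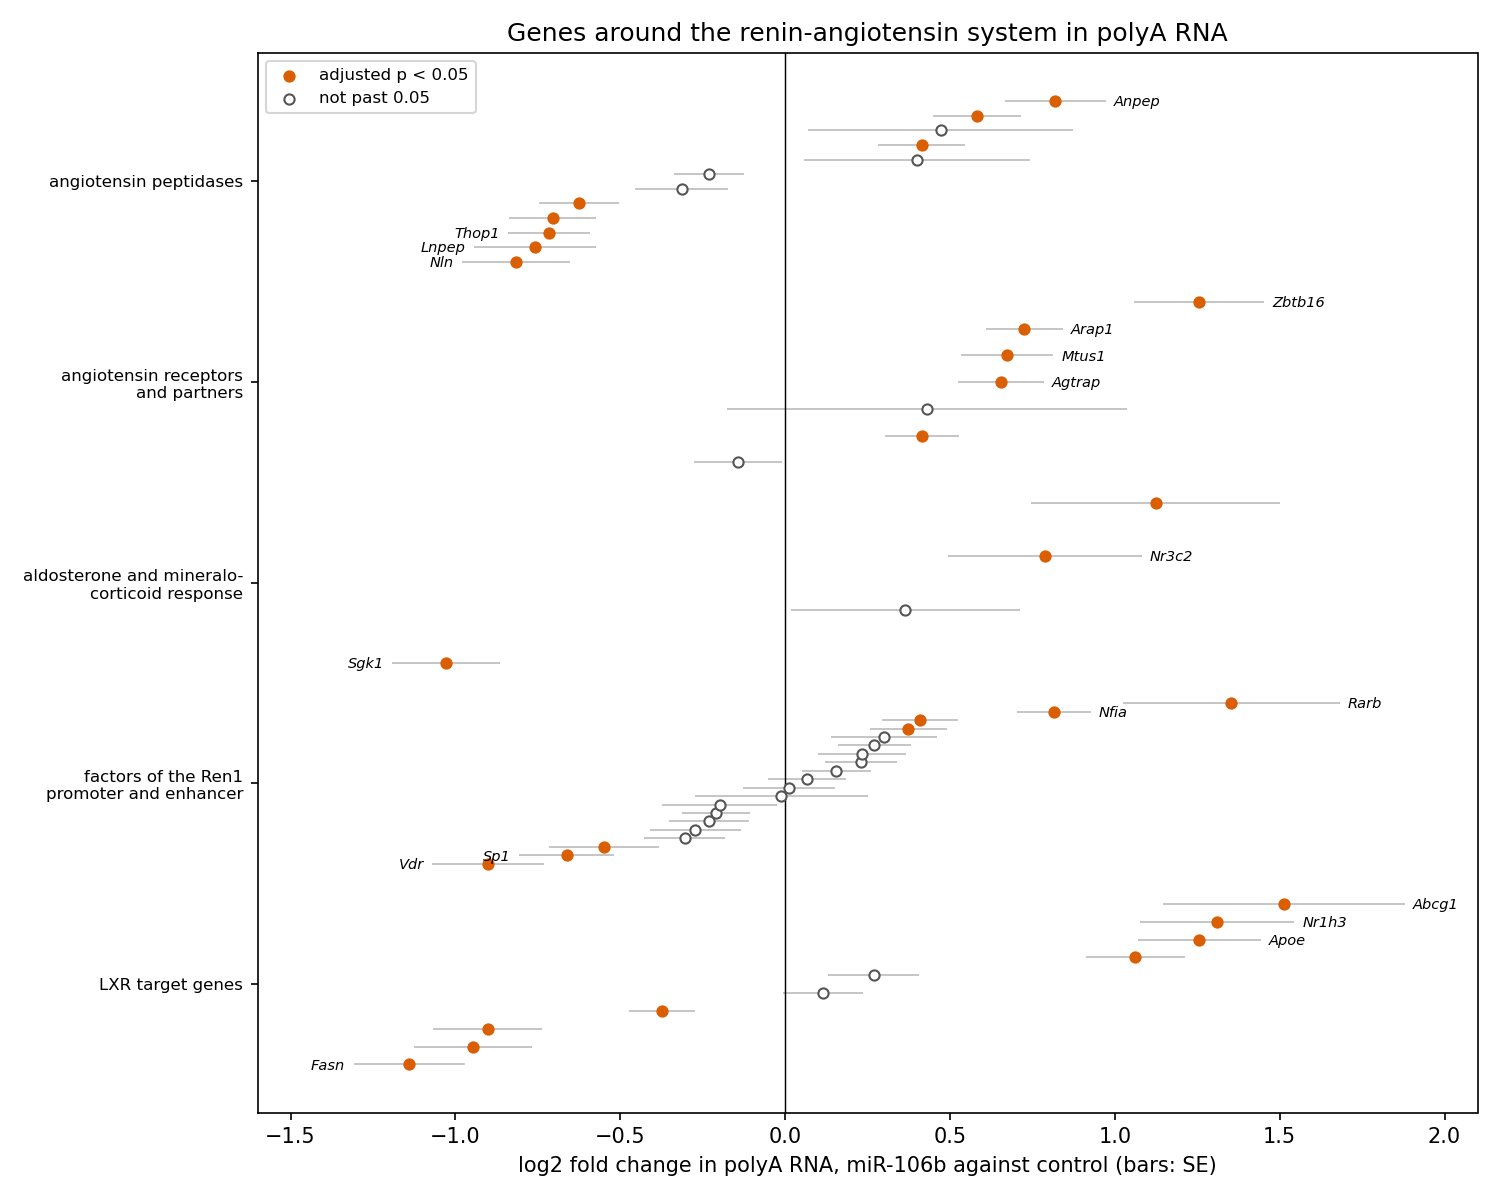
Fitted log2 fold change between miR-106b and control in polyA RNA (horizontal axis, bars for the SE) of the tested genes of 5 lists (vertical axis, sorted within each list), filled where adjusted p was under 0.05. Names mark up to 4 genes per list. Angiotensin peptidases and liver X receptor targets fall on both sides of 0, and receptors and their partners mostly above it.

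Between the Ago2-IP groups no gene of these lists was called, as 0% of all tested genes were. Of the 52 tested genes of the lists other than the 10 above, 12 had a site of 7 or 8 bases for miR-106b-5p (23.1%, near the 23.0% of all genes), of which 3 rose, 2 fell and 7 did not pass in polyA RNA. Among the 40 without such a site, 14 rose, 11 fell and 15 did not pass.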

How the data were processed

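Read counts per gene of 16 mouse JG cell libraries were analysed. The authors removed ribosomal reads, aligned single-end reads of 50 bases to GRCm38 transcripts with TopHat2 and counted them per gene with HTSeq. The submitters' processing notes give TopHat2 version 2.0.10 and the methods another version. The deposited counts were raw whole numbers, and genes without reads were kept. Groups followed the sample titles.

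Counts were tested in R 4.3.3 with edgeR 4.0.16 (TMM scaling, robust quasi-likelihood F test, two-sided, prior count 0.125), in separate fits for polyA and Ago2-IP RNA and in a fit of all 16 libraries for ratios. The filter was 1 CPM in 3 of 4 replicates of a group. SE is the size of the log2 fold change over the root of F. Normalized CPM use TMM within each RNA kind, marker sums and values relative to them library size alone. DESeq2 1.42.0 was an alternative. Tests were checked on simulated counts that shared a mean profile in all libraries, with few genes changed and a fixed spread. There, fitted folds were right and false calls few, but more changes of the ratio of the smaller simulated size were missed than called. The pass criterion was changed to folds and false calls after a criterion on the share recovered had failed. Such counts lack the wide changes and uneven spread of the real libraries, so they cannot show how the tests do there. Values relative to cardiac markers are descriptions.

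The genes, lists and tests were chosen with earlier results of these data known. All 10 genes were described. From each list, up to 4 genes with the largest change in polyA RNA were named if adjusted p was below 0.05 and their mean in the 8 polyA libraries reached 5 CPM. The markers were 14 JG and renin lineage, 25 cardiac, 12 endothelial, 12 macrophage, 8 fibroblast and 8 hepatocyte genes. Hepatocyte markers summed to at most 4.93 CPM. Libraries had 2579086 to 9459585 counts. No pair of replicates agreed within sampling noise, with 1.69 to 29.9 chi-square units per gene. Libraries were not paired by replicate number. Correlations of deviations between libraries of the same number lay between -0.386 and 0.218, and those of different numbers were not computed.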

Additional observations from a re-analysis of the deposited data

Results flagged for a closer look

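Agt in polyA control replicate 4 was at 50.6 normalized CPM, far from the other 3 control libraries (its gap to the nearest was 0.868 of the range of the group). It was 1 such library among 28 groups of 4 tested, and chance gives about 1 in 20.

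The effect of miR-106b differed between Ago2-IP and polyA RNA for 5 of the 7 genes, by the interaction in edgeR's quasi-likelihood test. All 5 were lower, where 19.7% of all tested genes were, and 23 of 24 cardiac markers changed downward as well. The difference of the log2 fold changes was -1.35 for Ace, -1.07 for Agtr1a, -0.72 for Ctsb, -0.36 for Nr1h2 and -1.46 for Nr1h3. That of Nr1h2 passed in 8 of 23 alternatives, with adjusted p between 0.0169 and 0.464. It was lost without any of polyA control replicates 1 to 3, polyA miR-106b replicate 2, Ago2-IP control replicates 2 and 3, and Ago2-IP miR-106b replicates 1, 2 and 4. The other 4 passed in all 23.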

How the results depend on the processing

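Ace, Agtr1a, Ctsb and Nr1h3 kept their rise and passed in all 15 alternatives on the CPM scale in polyA RNA. Relative to the cardiac markers, the log2 difference turned to -0.19 for Agt, -0.074 for Ace, -0.23 for Agtr1a, -0.68 for Ctsb and -1.03 for Nr1h2, and was 0.10 for Nr1h3. This scale was chosen after seeing the data. Between 4 and 6 of the 7 genes passed in polyA RNA without a library, 0 in Ago2-IP RNA, 7 and 5 in the ratios after control and miR-106b transfection, and 4 to 5 for the change of the ratio. Genes called without a library numbered 4125 to 6706 in polyA RNA, 0 to 40 in Ago2-IP RNA (40 without Ago2-IP miR-106b replicate 4), 9750 to 10159 and 5973 to 7053 in the ratios, and 3336 to 4810 for their change. In Ago2-IP RNA 19 genes were called with no filter, 2 by DESeq2's Wald test, 1 with a replicate block and 1 with at least 10 counts in every library.

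Signs turned for small differences, and the cause was not tested. In Ago2-IP RNA, Nr1h3 had 0.001 with DESeq2 size factors, DESeq2's Wald test and the replicate block, and 0.005 with at least 10 counts in every library. Without a library, Agt ranged from -0.042 to 0.252, Agtr1a from -0.004 to 0.141, Atp6ap2 from -0.159 to 0.04, Ctsb from -0.045 to 0, Nr1h2 from -0.098 to 0.01 and Nr1h3 from -0.08 to 0.051. In the ratio after miR-106b transfection, Ctsb was at -0.054 and Nr1h2 at -0.088 with library size alone, and without a library as low as -0.017 and -0.012.

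The replicate numbers were not taken to pair the libraries, and a batch shared by libraries of the same number was not tested. With the replicate block, 5504 genes were called in polyA RNA, and 5 of the 7 genes, Agt among them (log2 1.04, adjusted p = 0.00332 in edgeR's test, 0.00332 to 0.22 over 15 alternatives). Nr1h2 lost its call in the change of the ratio (0.0547). With 5 counts of Agtr1b and 0 of Ren1 and Agtr2, no difference was detectable at this depth.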
